A study of Sus scrofa domesticus with 34 samples.

Results

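HOX genes encode homeodomain transcription factors that give cells of the developing body axis their position from head to tail. They were described here in 34 pig libraries labelled muscle, as markers of where in the body the RNA came from. Members were all genes of the count files whose symbol is HOX, a cluster letter from A to D and a number, which gave 34 of 31907 genes, 15029 of them with a symbol. They comprise 8 genes of the HOXA cluster, 9 of HOXB, 9 of HOXC and 8 of HOXD. HOXA4, HOXA6, HOXA13 and HOXD13 are paired with no identifier of the files and were not analysed here.

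In mammals the HOX genes lie in 4 clusters, and genes at the same place in different clusters are paralogues that share a number. Low numbers are expressed up to the hindbrain, middle numbers in the neck and thorax, and high numbers in the lower trunk, limbs and tail end, and adult connective tissue and muscle keep part of this code. Forebrain, midbrain and the cerebellum form in front of the HOX domain, whereas hindbrain, spinal cord and trunk and limb muscle form within it. Head muscles largely lack HOX expression.

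The pigs (Sus scrofa domesticus), 1 library per animal, received 1 of 4 diets that differed in vitamin D. Standard cholecalciferol, the control (n = 8, 4 females and 4 castrated males), gave cholecalciferol at 2000 IU per kg of grower feed and 1500 IU per kg of finisher feed, and increased cholecalciferol (n = 10, 6 females and 4 castrated males) gave 3000 and 2500 IU. The combination (n = 8, 4 females and 4 castrated males) was the control dose plus 1000 IU of 25(OH)D, the 25-hydroxylated form of the vitamin, in both phases, and the diet with 25(OH)D alone (n = 8, 4 of each sex) gave 2000 and 1500 IU of it. All males were castrated, so that no group held intact males.

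The libraries were not muscle alone. ACTA1, the skeletal muscle actin, had a median of 1322 CPM (reads per 1000000 gene counts of the library) and TNNC2, the fast troponin C, one of 836 CPM, while MBP, a myelin protein gene, had 2983 CPM and SNAP25, a neuronal synaptic gene, 1301 CPM. Each was present in all 34 libraries. Total gene counts ran from 1.34 to 30.4 M (M for 1000000 reads), and they stepped with the numbers of the deposited files: the 24 libraries of file numbers 1 to 24 held 4.08 to 13.2 M, the 5 of numbers 25 to 29 held 16.8 to 30.4 M and the 5 of numbers 30 to 34 held 1.34 to 2.69 M. One read was therefore worth 0.0329 to 0.746 CPM, and a library with 0 reads of a gene allows a level of up to 0.0988 to 2.24 CPM (3 reads, counting error only). In bulk RNA, fewer cells of a type and less RNA per cell cannot be told apart.

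HOX transcripts were rare but present in every library, and they came from a few genes of the HOXA and HOXC clusters. The 34 genes together had 5675 reads, and their summed level ran from 6.04 CPM through a median of 19.9 CPM to 57.8 CPM. The HOXA cluster held 48.0% of the reads, HOXC 44.4%, HOXD 6.24% and HOXB 1.36%. By position, paralogues 9 to 13 held 62.2% of the reads, paralogues 4 to 8 held 31.2% and paralogues 1 to 3 held 6.57%. The share of paralogues 9 to 13 in the summed CPM lay above 50% in 32 of 34 libraries. The 2 exceptions were combination replicate 3 at 31.4% and increased cholecalciferol replicate 8 at 39.9%.

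**Figure D1:**
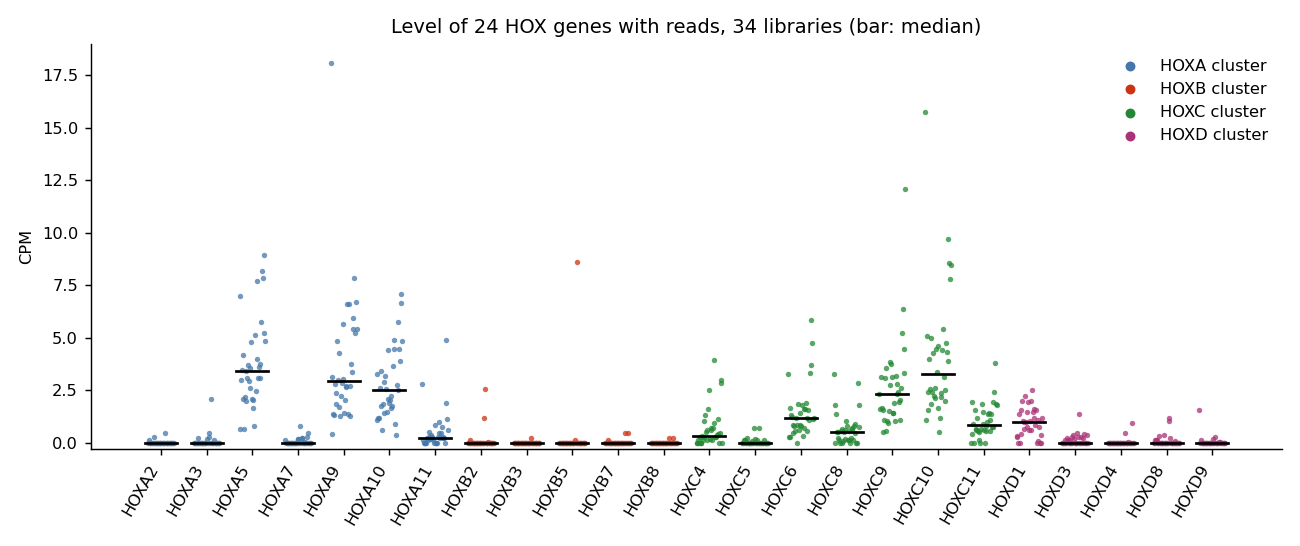
CPM of 24 HOX genes with reads, in order of cluster and paralogue number, with 1 point per library (34) and a bar at the median. HOXA5, HOXA9, HOXA10, HOXC9 and HOXC10 stand above 0 in every library, while 4 of the 5 HOXB genes with reads stay below 3 CPM in all libraries and HOXB5 has 1 point at 8.62 CPM.

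Reads were found for 25 of the 34 genes, and 5 genes had reads in all 34 libraries. HOXA5 (ENSSSCG00000016703), a middle-number gene that patterns the neck and upper thorax, ran from 0.646 CPM through a median of 3.44 to 8.93 CPM. HOXC10 (ENSSSCG00000022728), a gene of the lumbar region and hindlimb, ran from 0.512 through 3.27 to 15.7 CPM. HOXA9 (ENSSSCG00000028997), of the lower trunk and proximal limb, ran from 0.402 through 2.93 to 18.1 CPM. The medians of these 3 genes lay close together against their spread across libraries (SD 2.14, 3.04 and 3.17 CPM, n = 34). HOXA10 (ENSSSCG00000021204), which patterns lumbar segments and the proximal limb, ran from 0.382 through 2.54 to 7.07 CPM, and HOXC9 (ENSSSCG00000034474), which marks thoracic levels, from 0.526 through 2.33 to 12.1 CPM. Counts at the 3′ end do not scale with transcript length, so that these levels can be set side by side. How completely the annotation covers each 3′ end was not tested, and 16.4 to 29.9% of the reads of a library lay outside annotated features.

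A second tier was found in most libraries at about 1 CPM or less. HOXC6 (ENSSSCG00000030585), a gene of the forelimb and thoracic level, had reads in 33 libraries (0 to 5.87 CPM, median 1.19). HOXD1 (ENSSSCG00000015986), a low-number gene, had reads in 29 (0 to 2.50 CPM, median 0.995), and HOXC11 (ENSSSCG00000028104), of the lower lumbar and sacral level, in 30 (0 to 3.81 CPM, median 0.856). HOXC8 had reads in 28 libraries, HOXC4 in 27 and HOXA11, a gene of the middle limb segment, in 25, with medians of 0.527, 0.345 and 0.243 CPM. These levels rest on few reads: the median library held 20.5 reads of HOXA5, 19 of HOXC10, 7 of HOXC6, 5.5 of HOXD1 and 5 of HOXC11.

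Level did not follow gene order alone. HOXA7, which lies between HOXA5 and HOXA9 among the genes measured in its cluster, had 20 reads in 9 libraries, against 959 reads for HOXA5 and 926 for HOXA9. HOXC5, the neighbour of HOXC4 and HOXC6, had 16 reads against 161 and 362. In the HOXD cluster, HOXD3 had 43 reads in 14 libraries, HOXD8 28 in 9, HOXD9 16 in 6 and HOXD4 5 in 3. HOXA3 had 20 reads and HOXA2 5.

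No read was counted for 9 genes, HOXB1, HOXB4, HOXB6, HOXB13, HOXC12, HOXC13, HOXD10, HOXD11 and HOXD12. Over the 276 M gene counts of all libraries this allows a level of up to 0.0109 CPM. In RefSeq's models of the assembly Sscrofa11.1, HOXD9 overlaps HOXD10 and HOXD11, and HOXA3 overlaps HOXA4, HOXA5 and HOXA6. No source used here names the build or annotation of the counts, so the values of these genes are uncertain, since reads in an overlap can be left uncounted.

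The number of HOX genes seen in a library depends on how deeply it was read. It ran from 8, in the library of 1.34 M counts, to 21, in a library of 4.29 M, with a median of 12. The deepest library, of 30.4 M counts, showed 13, so that the number did not follow depth alone. Thinned by calculation to 1.34 M counts each, the libraries would show 5.04 to 16.3 HOX genes, with a median of 8.61. With at least 5 reads required, the median was 8 genes. The highest count, before and after thinning, was that of combination replicate 3.

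Of the 8 HOX genes with enough reads to test, 6 rose with the skeletal muscle transcripts of the same library. The muscle score was the mean log2 CPM of ACTA1 and TNNC2, which ran from 8.62 to 11.43. The library with the lowest score, standard cholecalciferol replicate 1, also had the lowest summed HOX level, 6.04 CPM. The library with the highest score, combination replicate 8, had 42.3 CPM. The highest HOX level, 57.8 CPM in 25(OH)D replicate 1, came with a score of 11.13. That library had reads of 15610 genes at 6.41 M counts. The other libraries of file numbers 1 to 24 had reads of 17405 to 18895 genes, and the library of 1.34 M counts of 15625. Whether this low number of genes bears on its HOX level was not tested. On the log2 scale the summed HOX level had an SD of 0.73 across libraries, and after the muscle score of each library was subtracted the SD was 0.29.

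Gene by gene, this link was fitted over the whole table with diet, sex, the muscle score and the regional score of brain transcripts in 1 model, in which a slope of 1 means that a gene changes by the same log2 amount as the score. Of the 34 HOX genes, 8 passed the filter on low counts and were tested, and these hold 87.9% of the HOX reads. HOXC10 rose with a slope of 1.25 (95% interval 0.90 to 1.61, adjusted p = 3.61e-06 by Benjamini-Hochberg after the quasi-likelihood test of edgeR) and HOXA9 with a slope of 1.23 (0.84 to 1.62, adjusted p = 3.38e-05). HOXA5 rose with a slope of 0.94 (0.55 to 1.33, adjusted p = 0.00220). HOXC6 (slope 1.07, adjusted p = 0.0145), HOXA10 (0.89, adjusted p = 0.0146) and HOXC9 (0.84, adjusted p = 0.0240) also rose. HOXC11 had a slope of 1.08 with a wide interval (0.33 to 1.83) and did not pass (adjusted p = 0.139). HOXD1 was the tested gene with a value below 0, at −0.63 (−1.49 to 0.23, adjusted p = 0.501).

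**Figure D2:**
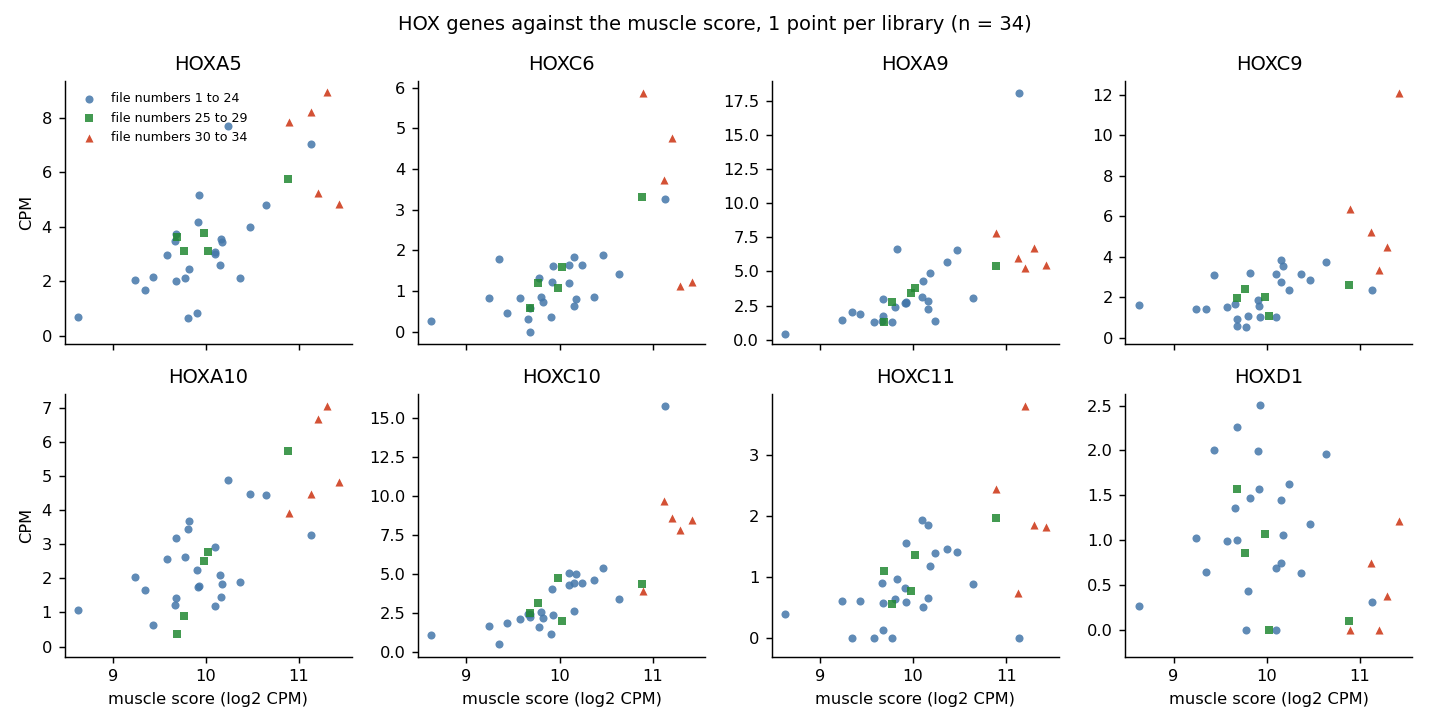
CPM of the 8 tested HOX genes (y axes) against the muscle score, the mean log2 CPM of ACTA1 and TNNC2 (x axes), with 1 point per library and symbols by file number. HOXC10 and HOXA9 climb along the score within file numbers 1 to 24 too, the 5 libraries of file numbers 30 to 34 lie at scores of 10.89 and above, and HOXD1 shows no climb. In file numbers 1 to 24 the highest point of HOXC10 and of HOXA9 is 25(OH)D replicate 1, which also has the highest score there.

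Over all 13968 genes tested, 1.73% were called with the muscle score in either direction and 1.52% as higher, and the median slope was 0.00 (to 2 decimals), against 6 of the 8 tested HOX genes. At an unadjusted p below 0.05 the shares were 7 of 8 HOX genes and 15.1% of all genes. HOXC11 was the seventh, and it was also called (adjusted p = 0.0474) without 25(OH)D replicate 1. A gene passes the filter more easily when it is high somewhere, and the wider view is therefore the fit with no filter on low counts. There, 25 HOX genes had a value and 4 were called higher (HOXA5, HOXA9, HOXA10 and HOXC10), against 0.779% of 25689 genes, and 0 were called lower, against 0.152%. HOXC6 (adjusted p = 0.0515) and HOXC9 (adjusted p = 0.0564) did not pass in that fit, and HOXA11 (1.31), HOXC8 (1.23) and HOXC4 (0.95) had slopes near those of the called genes without passing. For comparison, 9 of 11 tested genes of a list of other skeletal muscle transcripts rose with the score, such as NEB, of the thin filament (slope 0.84), and TNNT3, the fast troponin T (0.95). Whether the HOX slopes differ from these was not tested.

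Libraries of file numbers 30 to 34 had high muscle scores and the lowest depth. Their muscle scores were 10.89 to 11.43 and their summed HOX level 38.8 to 46.1 CPM, against 6.04 to 57.8 CPM in numbers 1 to 24 and 14.5 to 32.8 CPM in numbers 25 to 29. Without these 5 libraries, HOXA9 (slope 1.78, adjusted p = 1.53e-05) and HOXC10 (1.34, adjusted p = 0.00197) were the 2 HOX genes called, and HOXA5 (0.94), HOXA10 (0.97), HOXC6 (1.08) and HOXC9 (0.72) had positive slopes without passing. Within file numbers 1 to 24 the same 2 genes were called (1.80 and 1.81), and with the 3 file-number runs as a model term again these 2 (1.72 and 1.35). The other runs hold 5 libraries each and were not fitted alone. Within file numbers 1 to 24, 25(OH)D replicate 1 had the highest muscle score (11.13, next 10.64). It was also highest there for HOXA9 (18.1 CPM, next 6.61 CPM) and HOXC10 (15.7 CPM, next 5.41 CPM). No fit left it out together with file numbers 30 to 34, so its part in these calls was not tested. HOXA9 and HOXC10 were called in all 14 alternatives, with slopes of 1.03 to 1.80 and 1.15 to 1.81.

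Of the other cell types, few transcripts were called with the muscle score, as for genes at large (1.73% called and 15.1% at an unadjusted p below 0.05). Of 10 tested fibroblast genes 1 rose with it, FBN1, the fibrillin gene (slope 0.81, adjusted p = 4.64e-05), and 9 did not pass. Of the tested markers of neurons (5), glia (5), endothelium (5), smooth muscle and pericytes (5) and liver (6), 0 passed in either direction (edgeR). At an unadjusted p below 0.05 there were 2 liver genes, 1 neuron gene and 1 endothelial gene among them, and 0 of the others, so that 4 of 26 lie near the share of all genes. Cerebellar genes outside the regional score were above it. Of 8 tested cerebellar genes 0 were called (edgeR), but 5 had an unadjusted p below 0.05, and all 8 slopes were positive, from 0.19 (GABRA6, a granule cell receptor subunit) to 0.47 (ZIC1, a transcription factor of granule cells). With a fibroblast score added to the model, the same 6 HOX genes were called higher, with slopes of 0.87 to 1.25. The part of the other cell types in the HOX slopes was not tested.

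Neurons of the hindbrain and spinal cord lie within the HOX domain, and their markers gave a mixed picture. Of 16 markers, CHAT, SLC18A3, MNX1, PHOX2A and FEV had no read in any library. SLC5A7, a choline transporter gene of cholinergic neurons, had reads in 29 libraries at up to 10.3 CPM, and GLRA1, a glycine receptor gene, in 26 at up to 6.29 CPM. PRPH, a neuronal intermediate filament gene, had reads in 25 libraries at up to 3.81 CPM. Of the list, 1 gene passed the filter on low counts and it was not called on either score (edgeR, with an unadjusted p below 0.05 for the regional score alone). These genes were singled out after their levels were seen.

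Brain region was the second link examined. The regional score was the mean log2 CPM of CBLN3 and CBLN1, which granule cells of the cerebellum express, minus that of FEZF2 and TBR1, which encode transcription factors of cortical neurons, and ran from 2.39 to 9.63. Neither region expresses HOX genes in development. HOXD1 was lower where the score was higher, with a slope of −0.29 per unit (95% interval −0.48 to −0.09, adjusted p = 0.0164). The other 7 tested genes did not pass, with slopes from −0.11 (HOXC11) to 0.12 (HOXC6). Across all genes tested 38.4% were called with this score, 19.7% as higher and 18.7% as lower, so that 1 HOX gene of 8 is below the background share. At an unadjusted p below 0.05 the count was also 1 of 8, against 46.3% of all genes. The muscle score was nearly unrelated to the regional score (Pearson's r = 0.04 across 34 libraries, given as a description of the 2 covariates).

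HOXD1 was the tested member with its lowest median in file numbers 30 to 34, where the summed HOX level was high. It ran from 0 CPM in 5 libraries to 2.50 CPM in increased cholecalciferol replicate 8. Its median was 1.04 CPM in file numbers 1 to 24, 0.856 CPM in 25 to 29 and 0.372 CPM in 30 to 34, the reverse of HOXA5, with 2.97, 3.63 and 7.83 CPM. In file numbers 30 to 34 HOXD1 had 0 to 2 reads per library, and its median there is 1 read, in combination replicate 7. The HOXD1 call on the regional score was lost within file numbers 1 to 24 (−0.19, adjusted p = 0.227) and without the 2 libraries farthest from the median score, standard cholecalciferol replicate 1 and increased cholecalciferol replicate 1 (−0.31, adjusted p = 0.0784). A test of HOXD1 against the other HOX genes was not run.

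**Figure D3:**
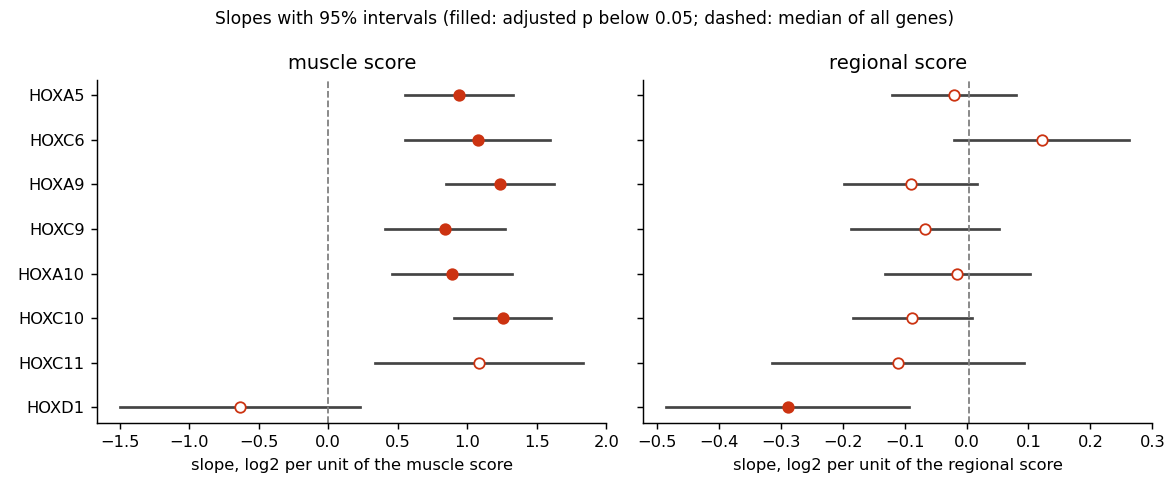
Fitted slopes of the 8 tested HOX genes (log2 per unit of score, x axes) on the muscle score (left) and on the regional score (right), with 95% intervals, filled where the adjusted p was below 0.05 and with a dashed line at the median of all genes. Filled points are HOXA5, HOXC6, HOXA9, HOXC9, HOXA10 and HOXC10 for muscle, at 0.84 to 1.25, and HOXD1 alone for region, at −0.29.

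Genes that act with or on HOX proteins were next set against the same backgrounds, 1.73% called and 15.1% at an unadjusted p below 0.05 for the muscle score and 38.4% called for the regional score. PBX, MEIS and PKNOX proteins are homeodomain partners that bind DNA together with HOX proteins. Of 9 listed partners 7 had a symbol in the files and 6 were tested, and MEIS1 alone rose with the muscle score (slope 0.33, adjusted p = 0.00415). With the regional score MEIS1 (0.37) and PBX3 (0.28) rose and MEIS2 fell (−0.29). Of 18 tested chromatin regulators that set HOX expression, among them the Polycomb subunits EZH2 and SUZ12 and the activating methyltransferase KMT2A, 0 passed with the muscle score (edgeR, with 2 at an unadjusted p below 0.05). With the regional score 9 rose, such as EZH2 (0.22) and CBX8 (0.26), and RNF2 fell (−0.07), with 8 not passing. None of the 7 tested genes upstream of HOX, such as the retinoic acid receptors, passed with the muscle score (edgeR, with 0 at an unadjusted p below 0.05). CYP26A1, which degrades retinoic acid, was lower with the regional score (−0.27) and GDF11, a signal that sets posterior HOX expression, higher (0.16).

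Homeobox genes of the head are expressed in front of the HOX domain, and some of them also within it. Of 8 tested members of a list of such genes, 7 passed with the regional score, against 38.4% of all genes. EN2, of the midbrain and cerebellum (0.44), OTX2 (0.33) and PAX6 (0.31) rose, and LHX2 (−0.66), DLX1 (−0.59), OTX1 (−0.56) and EMX2 (−0.44), genes of the forebrain, fell. With the muscle score EN2 alone rose (0.46, adjusted p = 0.00349), against 1.73% of all genes called, and the other 7 did not pass. At an unadjusted p below 0.05 there were 4 of the 8, against 15.1% of all genes, the others being LHX2 (slope 0.41), DLX1 (0.50) and OTX2 (0.51). Markers of a limb were too low to place the muscle: TBX4, of the hindlimb, had reads in 12 libraries at up to 0.951 CPM and TBX5, of the forelimb, in 9 at up to 0.927 CPM.

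HOXB reads came mainly from 2 libraries, except those of HOXB7 (11 reads) and HOXB8 (6 reads), which had 0 in both. HOXB5 (ENSSSCG00000017540), a gene of the foregut and trunk mesoderm, was at 8.62 CPM in combination replicate 3, at 0.147 CPM in increased cholecalciferol replicate 8 and at 0 in the other 32. HOXB2, a hindbrain and pharyngeal gene, was at 2.56 and 1.18 CPM in the same libraries and at no more than 0.149 CPM elsewhere. HOXA3, a pharyngeal gene, was at 2.10 CPM in combination replicate 3 against 0 to 0.470 CPM in the other 33, and HOXC4 at 3.96 CPM and HOXD3 at 1.40 CPM were also at their highest there. Of all 77 HOXB reads, 49 came from combination replicate 3 and 9 from increased cholecalciferol replicate 8, and 26 libraries had none.

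The genes that moved with muscle were not exceptional in these 2 libraries. In combination replicate 3, HOXA9 was at 1.40 CPM (rank 29 of 34, counted from the highest), HOXC9 at 2.33 CPM (rank 18) and HOXC10 at 4.43 CPM (rank 12), while HOXA5 (7.69 CPM) and HOXA10 (4.89 CPM) both ranked 4. The same 2 libraries had the highest levels of 3 of the 5 smooth muscle and pericyte markers, while PDGFRB was highest in the first alone and RGS5 in neither. ACTA2, the smooth muscle actin, was at 183 CPM in combination replicate 3 and 106 CPM in increased cholecalciferol replicate 8, against at most 39.4 CPM in the other 32. MYH11 (56.6 and 17.8 CPM, at most 11.2 elsewhere) and TAGLN (114 and 38.6 CPM, at most 18.7 elsewhere) ran alike, as did COL3A1, a fibrillar collagen gene (170 and 41.4 CPM, at most 34.6 elsewhere). Of the 10 fibroblast markers, 7 were highest in combination replicate 3. In increased cholecalciferol replicate 8, COL3A1 was the 1 fibroblast marker that ranked in the top 2, while COL1A1 ranked 9 and LUM 21. CPA1, a pancreatic carboxypeptidase gene, was at 145 CPM in combination replicate 3 and 11.5 CPM in increased cholecalciferol replicate 8, against at most 11.3 CPM. PNLIP, the pancreatic lipase gene, was at 72.0 CPM in combination replicate 3. In increased cholecalciferol replicate 8 it was at 3.68 CPM, below the highest of the other 32 libraries, 6.37 CPM. Scores of further cell types (mean log2 CPM of their markers) were mixed. For neurons, combination replicate 3 ranked 30 (8.15) and increased cholecalciferol replicate 8 ranked 20 (8.49), against a median of 8.56 in the other 32. For liver they ranked 6 and 5. Other scores were high. Combination replicate 3 had the highest endothelial score, 4.91, and increased cholecalciferol replicate 8 the next, 4.26, against at most 4.13 elsewhere. The glial score was highest in increased cholecalciferol replicate 8 (10.94), followed by combination replicate 3 (10.44), against at most 10.20. Combination replicate 3 also had the highest score of hindbrain and spinal cord markers, −0.27 against at most −0.62 elsewhere, and of leukocyte markers, 2.80 against at most 2.17. In skeletal muscle actin they did not stand apart, with ACTA1 at 1574 CPM (rank 11) and 1094 CPM (rank 25). These libraries were singled out after their values were seen, and the part of these tissues and cell types in the HOXB reads was not tested.

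**Figure D4:**
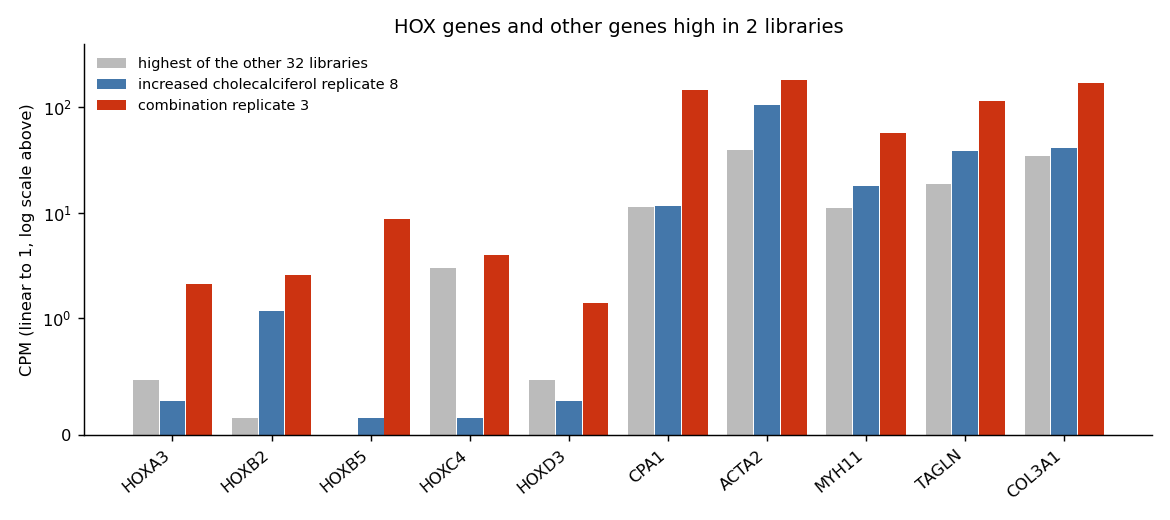
CPM (axis linear up to 1 and logarithmic above) of 5 HOX genes, CPA1, 3 smooth muscle genes and COL3A1 in combination replicate 3, in increased cholecalciferol replicate 8 and at the highest of the other 32 libraries. Combination replicate 3 is highest for all 10 genes, and HOXB5 is at 0 in all of the other 32 libraries.

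The diet comparison was the one the study was designed for, and no HOX gene passed the test for diet. The summed HOX level ran from 6.04 through a median of 17.4 to 32.8 CPM with standard cholecalciferol, from 12.7 through 19.5 to 29.9 CPM with increased cholecalciferol, from 10.7 through 42.9 to 47.5 CPM with the combination and from 10.5 through 20.4 to 57.8 CPM with 25(OH)D. The ranges of all diets overlap, and the high median of the combination goes with its 4 libraries of file numbers 30 to 34, at 42.3 to 46.1 CPM. Its muscle score was also the highest, with a median of 10.56 against 9.80, 10.04 and 10.10 in the order standard, increased and 25(OH)D. With the muscle score subtracted, the log2 HOX level averaged −5.54 ± 0.44 with the combination, −5.72 ± 0.13 with standard cholecalciferol, −5.73 ± 0.18 with increased cholecalciferol and −5.82 ± 0.32 with 25(OH)D (SD, n = 8, 8, 10 and 8). The highest of these values, −4.66, was that of combination replicate 3.

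**Figure D5:**
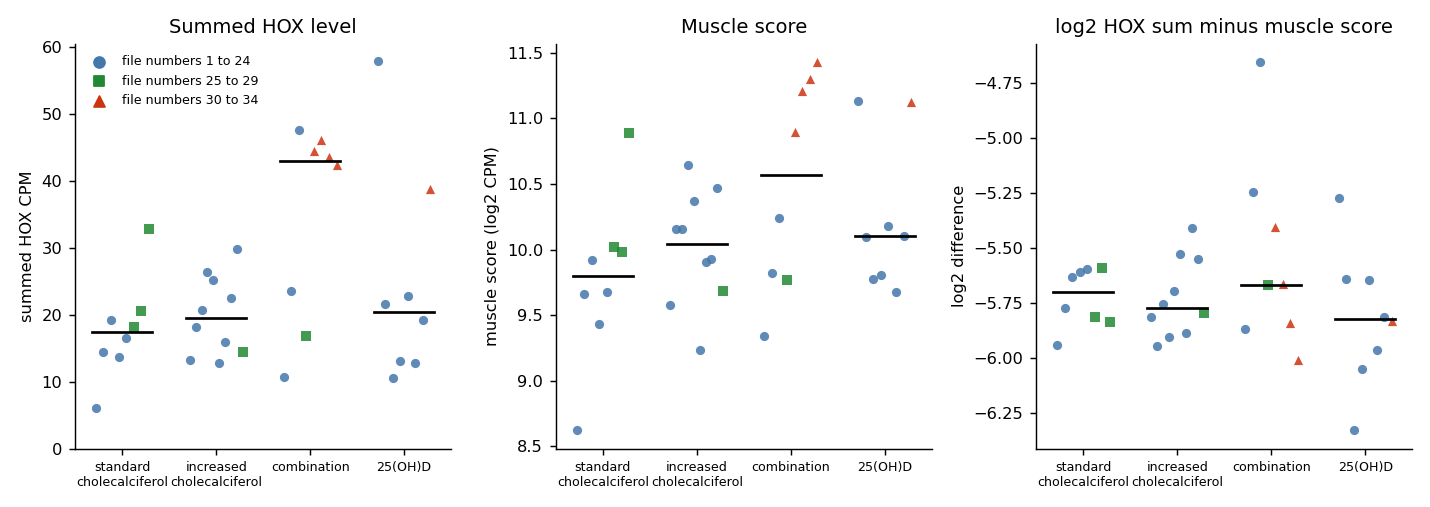
Summed HOX level (CPM, left), muscle score (log2 CPM, middle) and their log2 difference (right) by diet, with 1 point per library, symbols by file number and a bar at the median of each diet. The combination has the highest median HOX level, 42.9 CPM, and 4 of its 8 libraries are of file numbers 30 to 34, whereas in the right panel the diets lie over each other.

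None of the 8 tested HOX genes passed in any of the 6 pairs of diets (edgeR quasi-likelihood test, background 0% of 13974 genes called in each pair), and DESeq2 and limma-voom also called 0 HOX genes. At an unadjusted p below 0.05 there were 0 HOX genes for increased against standard cholecalciferol (7.77% of all genes), 1 for the combination against standard (4.34%), 2 for 25(OH)D against standard (3.23%), 0 for the combination against increased (4.14%), 2 for 25(OH)D against increased (12%) and 1 for 25(OH)D against the combination (7.57%). The first 3 pairs share the control libraries. For the dose of cholecalciferol alone, HOXC9 was at 0.30 (95% interval −0.51 to 1.10) and HOXA5 at −0.12 (−0.86 to 0.61), so that the interval of HOXC9 reached past a 2-fold difference.

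HOXC9 had a median of 1.63 CPM with standard cholecalciferol (0.929 to 3.09 CPM), against 3.26 CPM with the combination (1.41 to 12.1 CPM). The ranges overlap. The fitted log2 difference was 1.09 (SE 0.43, unadjusted p = 0.0149, adjusted p = 0.999), and without file numbers 30 to 34 it was 0.32. Between 25(OH)D and the combination HOXC9 was at −0.98 (SE 0.44, adjusted p = 0.653), and at −0.38 without those file numbers.

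For the 2 molecules at matched doses, HOXA9 had a median of 3.71 CPM with 25(OH)D (1.32 to 18.1 CPM) and 2.32 CPM with standard cholecalciferol (0.402 to 5.44 CPM). The difference was 1.06 (SE 0.45, unadjusted p = 0.0251, adjusted p = 1.00) and was 0.35 without 25(OH)D replicate 1. HOXC10 had a median of 4.64 CPM with 25(OH)D (1.58 to 15.7 CPM) and 2.33 CPM with standard cholecalciferol (1.07 to 4.76 CPM), a difference of 1.00 (SE 0.43, adjusted p = 1.00) that was 0.52 without that library, the one with the highest level of both genes. In the pair of 25(OH)D and increased cholecalciferol, HOXA9 was at 0.98 (adjusted p = 0.389) and HOXC10 at 0.95 (adjusted p = 0.374), and without 25(OH)D replicate 1 they were at 0.35 and 0.53.

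No difference between the sexes was detectable in the HOX genes. The summed level ran from 6.04 through a median of 21.2 to 46.1 CPM in 18 females and from 10.5 through 19.2 to 57.8 CPM in 16 castrated males. None of the 8 tested genes passed (edgeR; background 0.0787% of genes called; 0 HOX genes at an unadjusted p below 0.05, against 6.58% of all genes, and 0 called by DESeq2 and limma-voom). The widest difference was that of HOXC11, 0.52 higher in females (95% interval −0.40 to 1.44). In the test of whether the diet effect differs between the sexes, 0 of 8 passed (edgeR, background 0%; 0 HOX genes at an unadjusted p below 0.05, against 2.75% of all genes). HOXA9 had the lowest unadjusted p, 0.0509. DESeq2 and limma-voom also called 0, with 1 and 3 of the 8 HOX genes at an unadjusted p below 0.05, against 3.70% and 4.34% of all genes.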

How the data were processed

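The authors deposited raw counts of reads per gene in 34 files, 1 per library, from QuantSeq 3′ forward libraries, per the labels' protocols. The submitters' processing notes list FastQC, TopHat, HTSeq and DESeq2. No source used here names their versions, the genome build, the annotation or the strand setting. The 5 HTSeq category lines were left out, in which 16.4 to 29.9% of reads lay in no feature and 3.63 to 4.68% were ambiguous. Symbols came from a table that matched 15029 identifiers.

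CPM used total gene counts. The quasi-likelihood test of edgeR (4.0.16, R 4.3.3) was run two-sided on all 34 libraries, with TMM factors, edgeR's expression filter by diet, Benjamini-Hochberg adjustment over all genes tested and a threshold of 0.05. Diet and sex were tested with both in the model, and the slopes with both scores added (log2 CPM, prior count 3, the 6 score genes not tested). Alternatives used DESeq2 1.42.0, limma 3.58.1 (voom) and the settings named in the closing section. Replicates, numbered by accession, are separate animals, per the labels.

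On simulated counts, the muscle slope fit (13683 genes) recovered 50% of slopes of 0.5 and 86% of slopes of 1, with 5 false calls among 141. The regional slope fit (13621 genes) recovered 37% of slopes of 0.1 and 91% of 0.3, with 0 false among 128. The combination against standard cholecalciferol (13706 genes) recovered 67% of log2 changes of 1 and 93% of changes of 2, with 9 false among 169. The simulated spread was that of the model with both scores, whereas the diet test leaves the scores out. Recovery of diet differences in the real data can therefore be lower than these shares. Recovery at the low levels of the HOX genes was not tested apart.

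The genes and lists were chosen with earlier results of these data known. Every HOX gene was to be named (some results are not reported here), with full values for the 8 of highest median, and up to 5 called genes per direction of each other list.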

Additional observations from a re-analysis of the deposited data

Results flagged for a closer look

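In 44 checks of a measure within a diet for a library far from the rest, 6 were positive. Chance gives about 1 in 20 for normally distributed measures that are not mostly 0. Whether CPM that rest on few reads follow that rate was not tested. Summed HOXB level accounted for 4 of them: combination replicate 3 at 11.4 CPM (next 0.489 CPM), increased cholecalciferol replicate 8 at 1.32 CPM (next 0.235 CPM), standard cholecalciferol replicate 6 at 0.544 CPM (next 0.252 CPM) and 25(OH)D replicate 2 at 0.149 CPM (next 0 CPM), the last being a single read. HOXB was at 0 in 26 of 34 libraries, so that single reads can meet the criterion and the chance rate does not hold for it. HOXA9 stood at 18.1 CPM in 25(OH)D replicate 1 (next 5.97 CPM), and HOXC9 at 12.1 CPM in combination replicate 8 (next 6.36 CPM).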

How the results depend on the processing

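The number of HOX genes called with the muscle score, 6, was 2 with the file-number runs as a model term, 2 within file numbers 1 to 24, 2 without file numbers 30 to 34 and 3 with scores from longer gene lists, and lay between 4 and 7 in the other alternatives. Over all genes the muscle calls, 242, were 111, 55, 97 and 144 in these, 143 with each score alone, 418 with DESeq2 and 616 without the 2 libraries farthest from the median score. DESeq2 gave no adjusted p for HOXC11 and HOXD1 there. The number of HOX genes called with the regional score, 1, was 2 with no filter on low counts (HOXB2 added, on 21 reads), 3 with the longer lists (HOXA9 and HOXC10 added), 0 within file numbers 1 to 24 and 0 without the 2 farthest libraries. The cause of these shifts was not tested. Some slopes changed sign. On the muscle score HOXD1 was 0.13 within file numbers 1 to 24 and 0.043 with the longer lists. On the regional score HOXA10 was 0.0051 with each score alone and 0.023 with limma-voom, HOXA5 was 0.012 with each score alone and 0.014 within file numbers 1 to 24, and HOXC10 was 0.0070 within file numbers 1 to 24. No HOX gene was called for diet, sex or their interaction in any alternative run, also without combination replicate 3 or 25(OH)D replicate 1, both chosen after seeing the data. Over all genes, 8 were called for 25(OH)D against the combination and 2 for the combination against increased cholecalciferol within file numbers 1 to 24, 2 and 1 without file numbers 30 to 34, and 1 for the latter pair with the runs as a term, where sex gave 18 in place of 11. No paired analysis was possible because the replicate numbers come from accession order and tie no animals together. Depth limits the HOX genes below the filter, 17 of which rest on few reads.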
